A study of Mus musculus with 24 samples.

Results

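Collagen genes were followed across 24 mouse colon samples hybridised to Illumina MouseRef-8 bead arrays. The members were all targets of the deposited gene table whose name is COL, a number, A and a number, and 36 of the 18097 targets met that rule. The mice were either ApcMin/+, heterozygous for a mutation of the tumour suppressor Apc and prone to intestinal tumours, or C57Bl/6 wild type. ApcMin mice received ATB-346 at 14.5 mg/kg (6 arrays), naproxen at 10 mg/kg (6 arrays) or vehicle (8 arrays), and wild-type mice received vehicle (4 arrays). Naproxen is a non-steroidal anti-inflammatory drug, and ATB-346 is a derivative of naproxen that releases hydrogen sulfide. Their doses in mg/kg differed. Doses were given by gavage once a day for 7 days from 6 weeks of age in all 4 groups, in a vehicle of 0.05% DMSO and 0.95% carboxymethylcellulose, and colon was taken at an age of 14 weeks, which is 7 weeks from the end of dosing. The design asks whether a short course of either drug left a trace in the colon transcriptome.

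Collagens are proteins with a triple helix of 3 chains, and they form the fibrils, sheets and beaded filaments of the extracellular matrix. Fibroblasts and muscle cells of the gut wall make the fibrillar types I, III and V and the beaded type VI, and most epithelia, vessels and muscle fibres rest on a basement membrane of type IV. FACIT collagens sit on the surface of fibrils, and types XV and XVIII lie in or next to basement membranes. Chains of 1 trimer are often encoded by different genes, as type I by Col1a1 and Col1a2.

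The labels number the replicates 1 to 8 and name no batch, and earlier results of these data showed that arrays numbered 5 and above differ from those numbered 1 to 4. Replicates 5 and above comprised 2 ATB-346, 2 naproxen and 4 vehicle arrays, and all 4 wild-type arrays were among replicates 1 to 4. The 2 sets are therefore shown apart, and the main model held a mean per group and 1 term for the set. Since no label ties an array to a mouse of its own, the p-values reflect spread among samples that may be partly technical. Raw array medians ran from 81.4 to 102.9 intensity units, and normalised arrays correlated with r from 0.964 to 0.996. The tissue label was checked against markers. Of 8 colon epithelial markers 6 were found among the targets, and Epcam and Car1 were not. Of those found, Slc26a3 had a low mean log2 signal of 6.29. The mean of the colon epithelial markers was 11.11 to 11.85 in ATB-346, 11.41 to 11.73 in naproxen, 11.38 to 11.89 in vehicle and 11.23 to 11.57 in wild-type arrays, on the log2 scale used throughout. The mean of pancreatic acinar markers was 5.99 to 6.19 in ATB-346, 6.25 to 10.61 in naproxen, 6.00 to 14.47 in vehicle and 6.00 to 6.62 in wild-type arrays. The drug differences from vehicle with an unadjusted p under 0.05 are therefore also given with the acinar mean as a covariate.

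Of the 36 collagens, 16 had a mean normalised log2 signal over all arrays above 6.54, the median of all targets, and were tested among 9048 targets. They were 4 of 11 fibrillar genes (Col1a1, Col1a2, Col3a1, Col5a1), 3 of 6 type IV genes (Col4a1, Col4a2, Col4a5), both type VI genes (Col6a1, Col6a2), 4 of 7 FACIT genes (Col9a2, Col12a1, Col14a1, Col16a1), both multiplexins (Col15a1, Col18a1) and 1 of 4 transmembrane collagens (Col23a1). Col6a3 was not analysed here. The 20 members below the limit had means between 5.76 (Col13a1) and 6.53 (Col28a1), close to the lowest normalised value of 5.65. They include the cartilage collagens Col2a1, Col9a1, Col9a3, Col10a1, Col11a1 and Col11a2, the anchoring fibril gene Col7a1 and the hemidesmosome collagen Col17a1. The limit fell between Col9a2, at 6.55, and Col28a1, at 6.53. A dim probe can miss a transcript that is there, and Col5a2, the usual partner chain of Col5a1, was among the dim ones at 6.19. When all 18097 targets were tested without the limit, none of the 20 was called in any comparison (limma, adjusted p of 0.05), where 20.3% of targets were called between the replicate sets described next and 0.105% between ATB-346 and vehicle. Probe brightness depends on the probe, so levels of different genes are not ranked here.

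**Figure D1:**
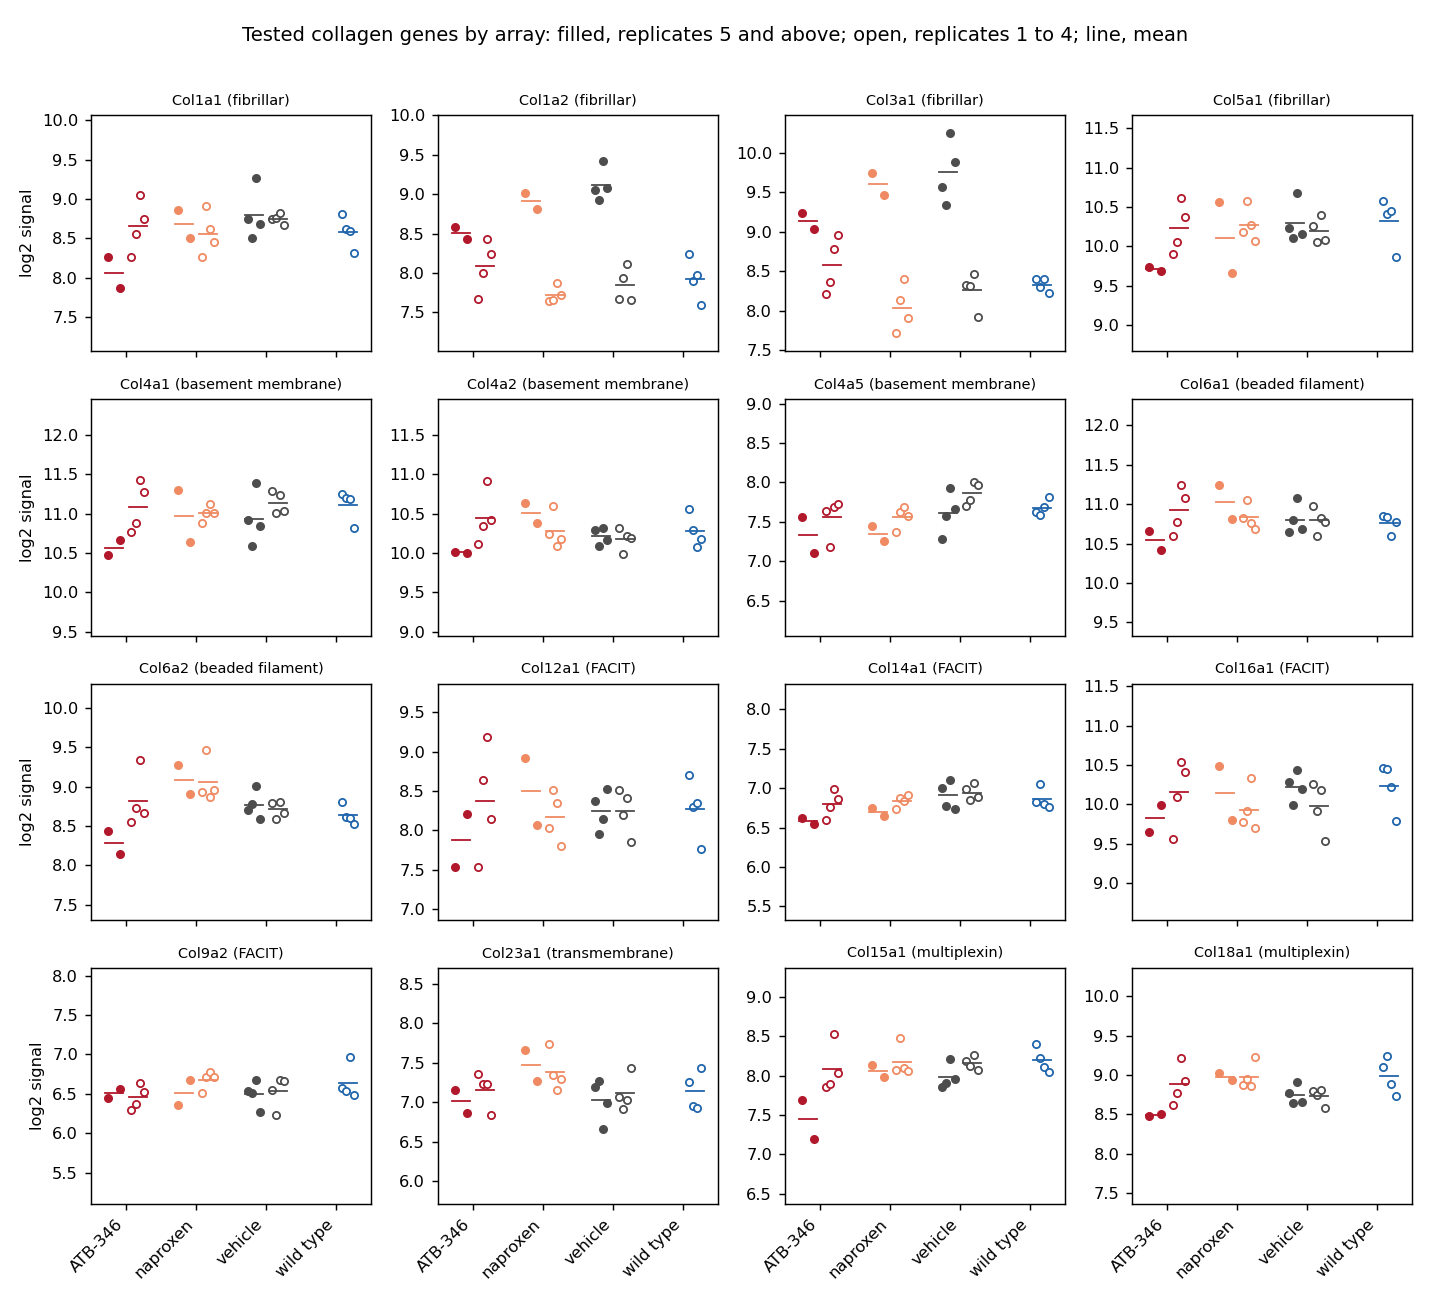
Normalised log2 signal (vertical axis, same span in every panel) of the 16 tested collagen genes on each array, by group, with ApcMin groups named by their treatment. Filled points are replicates 5 and above, open points replicates 1 to 4, and short lines their means. Col1a2 and Col3a1 are the 2 genes whose filled points lie above the open points in all 3 ApcMin groups.

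The strongest difference among collagens was between the replicate sets, and it was uneven across the fibrillar genes. Col3a1 and Col1a2 were higher in replicates 5 and above, by 1.25 and 1.01 log2 units, while Col1a1, the partner chain of Col1a2 in type I collagen, differed by -0.11 and did not pass the test. For Col1a2 and Col3a1 the 150 bases upstream of the start sites in the RefSeq promoter table (build GRCm38.p6) are shown. They run 5′ to 3′ on the gene's strand, with capitals marking the match to a searched motif. The Col1a2 window is chr6:4505468-4505617 on the plus strand and holds 1 CCAAT box. The Col3a1 window is chr1:45311388-45311537 on the plus strand and holds 1 TATAAA.
Col1a2: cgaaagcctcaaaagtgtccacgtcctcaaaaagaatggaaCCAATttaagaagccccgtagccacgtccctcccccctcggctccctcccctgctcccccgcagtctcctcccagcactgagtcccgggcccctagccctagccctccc
Col3a1: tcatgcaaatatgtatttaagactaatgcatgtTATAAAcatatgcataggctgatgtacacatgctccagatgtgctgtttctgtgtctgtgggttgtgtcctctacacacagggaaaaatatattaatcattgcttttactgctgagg
Both strands were searched. The CCAAT box was present in 24.5% of 32851 mouse promoter windows of that length and in 8 of 38 windows of collagen genes. The letters TATAAA were present in 7.57% of all windows and in 4 of the 38. The GC box GGGCGG, also searched, was present in 28.6% of all windows and in 19 of the 38. The shown windows share none of these motifs, and a match is a description of the letters only. The table held 29 of the 36 members.

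Col3a1 encodes the chain of type III collagen, the fibrillar collagen of distensible organs such as gut and vessels. Its log2 signal was 9.23 and 9.04 in ATB-346 replicates 5 and 6, against 8.21, 8.36, 8.78 and 8.96 in ATB-346 replicates 1 to 4. It was 9.74 and 9.47 in naproxen replicates 5 and 6, against 7.71, 8.13, 8.40 and 7.90 in naproxen replicates 1 to 4. It was 9.56, 9.35, 10.26 and 9.88 in vehicle replicates 5 to 8, against 8.33, 8.32, 8.47 and 7.92 in vehicle replicates 1 to 4. The sets did not overlap in any of the 3 ApcMin groups, and the gap was narrowest in the ATB-346 group. Wild-type arrays had 8.40, 8.29, 8.40 and 8.22, within the span of replicates 1 to 4 of the ApcMin mice. The set difference was 1.25 (95% interval 0.94 to 1.57, limma adjusted p = 6.52e-07).

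Col1a2, the second chain of type I collagen, was 8.58 and 8.44 in ATB-346 replicates 5 and 6, against 7.67, 7.99, 8.43 and 8.24 in ATB-346 replicates 1 to 4. It was 9.02 and 8.81 in naproxen replicates 5 and 6, against 7.64, 7.66, 7.87 and 7.72 in naproxen replicates 1 to 4. It was 9.05, 8.92, 9.43 and 9.08 in vehicle replicates 5 to 8, against 7.66, 7.94, 8.11 and 7.66 in vehicle replicates 1 to 4. Again no group overlapped between the sets, and in the ATB-346 group the closest arrays of the sets, at 8.44 and 8.43, nearly met. Wild-type arrays had 8.24, 7.90, 7.97 and 7.59. The set difference was 1.01 (interval 0.75 to 1.27, limma adjusted p = 9.88e-07). Col1a1 had 8.26 and 7.87 in ATB-346 replicates 5 and 6, against 8.26, 8.56, 9.06 and 8.75 in ATB-346 replicates 1 to 4, the opposite order to Col1a2 in these mice. In the vehicle group Col1a1 was 8.75, 8.50, 9.27 and 8.69 in replicates 5 to 8, against 8.75, 8.75, 8.83 and 8.68 in replicates 1 to 4, and the sets overlapped. Its set difference was -0.11 (interval -0.38 to 0.15, limma adjusted p = 0.511).

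In all, 4 of the 16 tested collagens were called between the sets (limma, adjusted p under 0.05), where 37.1% of all tested targets were. Col1a2 and Col3a1 were the 2 higher ones (14.7% of all targets were called higher), and Col15a1 and Col4a5 the 2 lower ones (22.4%). The count over all 16 is thus near the background. At an unadjusted p under 0.05 there were 5, where 46.2% of all targets were. Col15a1, a multiplexin next to basement membranes, fell by 0.29 (SE 0.10, adjusted p = 0.0259) in limma. Col4a5, a type IV chain, fell by 0.24 (SE 0.08, adjusted p = 0.0325) in limma. Both of these calls were lost when ATB-346 replicate 6 was left out, at adjusted p = 0.091 for Col15a1 and 0.0906 for Col4a5, and the calls of Col3a1 and Col1a2 held with any 1 array left out. Col4a1, which forms the common type IV network with Col4a2, differed by -0.24 (adjusted p = 0.0936), and Col4a2 by -0.04 (adjusted p = 0.789). Of the 16, 3 were higher and 13 lower with a median of -0.08, beside -0.07 over all tested targets. All arrays of replicates 5 and above lay above all of replicates 1 to 4 in each ApcMin group for 2 of 16 collagens and for 7.61% of all targets.

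**Figure D2:**
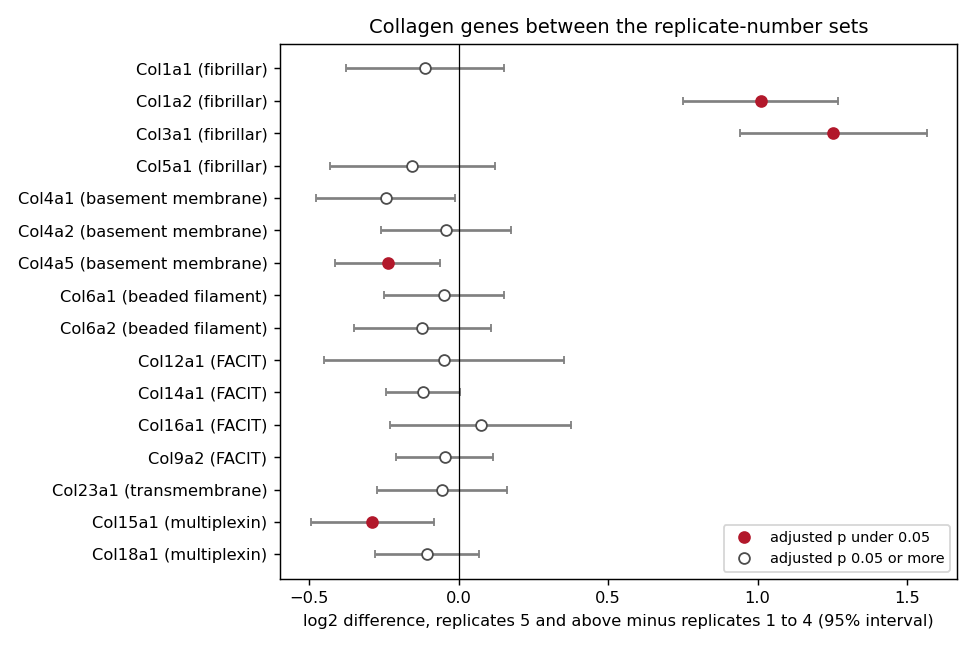
Log2 difference of replicates 5 and above minus replicates 1 to 4 (horizontal axis) for each tested collagen, from the limma fit with group means, with bars for the 95% interval. Col3a1 at 1.25 and Col1a2 at 1.01 stand to the right, Col15a1 and Col4a5 are the 2 called genes left of 0, and the other 12 did not pass.

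Col3a1 has a pair of probes on the array, and the deposited target value is the mean of their intensities, as for all 12 collagens with more than 1 probe (within 0.1 intensity units on every array). The brighter probe, ILMN_1258629, was 10.11 and 9.91 in ATB-346 replicates 5 and 6, against 8.95, 9.09, 9.56 and 9.74 in ATB-346 replicates 1 to 4. In vehicle arrays it was 10.44, 10.25, 11.21 and 10.78 in replicates 5 to 8, against 9.04, 8.96, 9.13 and 8.53 in replicates 1 to 4. The dimmer probe, ILMN_2683958, was 6.58 and 6.41 in ATB-346 replicates 5 and 6, against 6.60, 6.75, 6.97 and 7.09 in ATB-346 replicates 1 to 4. In vehicle arrays it was 6.97, 6.59, 7.06 and 6.99 in replicates 5 to 8, against 6.87, 7.05, 7.18 and 6.79 in replicates 1 to 4, and these overlapped, while in the ATB-346 group the dimmer probe was lower in replicates 5 and 6. The set difference was thus 1.45 on the brighter probe (SE 0.16, limma adjusted p = 1.72e-07) and -0.07 on the dimmer one (SE 0.10, adjusted p = 0.645).

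The gap between the brighter and the dimmer probe was wider in replicates 5 and above by 1.51 log2 units, by 1.03 in ATB-346, 1.53 in naproxen and 1.83 in vehicle mice. The dimmer probe lay between 6.39 and 7.18, close to 6.54, the limit set for the targets, which were normalised apart from the probes. Whether its signal was compressed at that level was not tested. The comparison of the probes is given as a description, since it was made after their values were seen. Col1a2 and Col1a1 have 1 probe each. Probe sequences were not used here, so where the 2 Col3a1 probes lie on the transcript was not analysed.

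**Figure D3:**
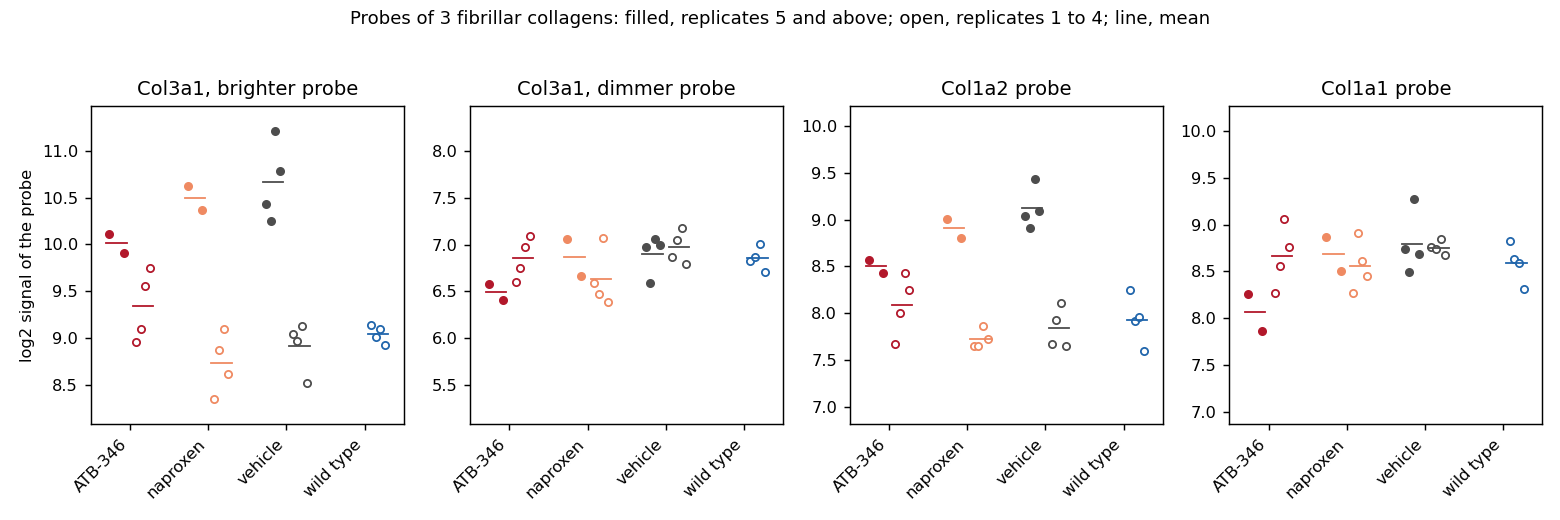
Normalised log2 signal of single probes (vertical axes of equal span) for Col3a1, Col1a2 and Col1a1 by group. Filled points are replicates 5 and above, open points replicates 1 to 4, lines their means. The brighter Col3a1 probe and the Col1a2 probe separate the sets in every ApcMin group, with filled points above. The filled points of the dimmer Col3a1 probe and the Col1a1 probe overlap the open points in the vehicle group and lie at or below them in the ATB-346 group.

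Genes that build, export and hold collagen were also compared between the sets, in 7 lists with 83 tested genes. In all 9 rose and 9 fell, or 21.7% called and 10.8% in each direction, below the shares of all targets (37.1% called, 14.7% higher and 22.4% lower). The called genes are given by role, and no list is read as standing apart. In procollagen folding and export, 4 of 13 tested genes rose and 2 fell. Hspa5, the main chaperone of the endoplasmic reticulum, rose by 1.09, Fkbp7, a prolyl isomerase, by 0.92, Sec24d, a coat protein of export vesicles, by 0.92 and Klhl12, a ubiquitin ligase adaptor for large vesicles, by 0.26. Fkbp10 fell by 0.19 and Tmem38b, an ion channel of the reticulum, by 0.17. Serpinh1, the collagen chaperone, differed by 0.20 and did not pass (limma adjusted p = 0.206).

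In prolyl and lysyl hydroxylation 0 of 11 rose and 3 fell, namely Plod3 by 0.21, Crtap by 0.21 and P3h4 by 0.21. Of all targets 14.7% were called higher and 22.4% lower, and the counts of this paragraph are read beside these shares. In propeptide cleavage and cross-linking Pcolce, the enhancer of procollagen C-proteinase, was the 1 of 7 that was called, and it fell by 0.25. In collagen degradation Timp3, a metalloproteinase inhibitor, was the 1 of 13 that was called, and it rose by 0.26, and among 5 collagen receptors none was called and none had an unadjusted p under 0.05 (limma). Among 20 collagen-binding matrix proteins, Sparcl1 rose by 1.68, the laminin chain Lamb1 by 0.85 and the small proteoglycan Dcn by 0.28, and none fell. Lamb1 had a mean of 6.63 over all arrays, just above the limit of 6.54. It may thus have been tested only through the replicates where it was high, and its call is given with that limit. In TGF-beta signalling, a main inducer of collagen genes, Tgfb2 rose by 0.45, and Tgfb1 fell by 0.36, Smad2 by 0.34 and Smad3 by 0.19, of 14 tested. Every value named as rising or falling passed limma's adjusted p of 0.05. Among marker lists of cell types, read against 14.7% of all targets called higher, 2 of 7 fibroblast markers rose (Dpt by 0.62 and Dcn) and 2 of 5 colon epithelial markers did. Of 5 macrophage markers Adgre1 rose by 0.50 and Csf1r by 0.29 and C1qb fell by 0.27, and the only tested chondrocyte marker, Sox9, rose by 0.32, while none of 8 smooth muscle markers was called or had an unadjusted p under 0.05 (limma). Fewer cells of a type and less RNA per cell cannot be told apart in tissue RNA, and the part of cell makeup in the set difference was not tested.

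Whether ATB-346 left collagen expression altered was asked against vehicle in ApcMin mice. No collagen was called (0 of 16, limma adjusted p of 0.05), where 0.309% of all tested targets were, and 14 of 16 differences were below 0 with a median of -0.07, beside 0.01 over all targets. At an unadjusted p under 0.05, 4 collagens were lower, where 5.52% of all targets were (13.4% in either direction): Col1a1, Col4a5, Col14a1 and Col15a1.

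Col14a1, a FACIT collagen that binds type I fibrils, had a lowest, median and highest signal of 6.55, 6.69 and 6.99 in ATB-346 arrays, against 6.74, 6.94 and 7.11 in vehicle arrays. It differed by -0.22 (SE 0.07, interval -0.36 to -0.07), with a limma adjusted p of 0.182. The groups overlapped, with 3 of the 6 ATB-346 arrays inside the vehicle span.

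Col4a5 had 7.10, 7.60 and 7.73 in ATB-346 arrays, against 7.28, 7.74 and 8.01 in vehicle arrays, and differed by -0.29 (SE 0.10, limma adjusted p = 0.202). Col1a1 had 7.87, 8.41 and 9.06 in ATB-346 arrays, against 8.50, 8.75 and 9.27 in vehicle arrays. It differed by -0.34 (interval -0.65 to -0.03, limma adjusted p = 0.33), and the ATB-346 arrays spread far more widely than the vehicle arrays. Col15a1 differed by -0.25 (SE 0.12, limma adjusted p = 0.358). Without ATB-346 replicate 6 the difference of Col15a1 was -0.13 and that of Col1a1 -0.20. With the acinar mean as a covariate the 4 differences were -0.20 for Col14a1, -0.19 for Col4a5, -0.25 for Col1a1 and -0.21 for Col15a1. The 2 collagens above 0 were Col4a2 at 0.10 and Col23a1 at 0.03. Col1a2 differed by -0.09, Col3a1 by -0.04, Col4a1 by -0.16, Col6a1 by -0.01, Col6a2 by -0.12 and Col18a1 by -0.00395, each with an interval that holds 0.

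Within the replicate sets the ATB-346 differences were unlike each other. In replicates 5 and above 15 of 16 collagens were lower in ATB-346 arrays with a median of -0.37, and in replicates 1 to 4 10 were higher and 6 lower with a median of 0.08. All-target medians were 0.01 in both sets. In replicates 5 and above both ATB-346 arrays lay below all 4 vehicle arrays for 9 of 16 collagens, where 5.94% of all targets did. They were Col1a1, Col1a2, Col3a1, Col5a1, Col4a2, Col6a2, Col14a1, Col15a1 and Col18a1. In replicates 1 to 4 this held for none of the 16 and for 2.08% of all targets. Collagens were high or low together from array to array (median r of 0.558 over 120 pairs). These counts, and those of the next paragraph, are therefore not of independent genes.

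Col1a1 was -0.74 in replicates 5 and above (interval -1.25 to -0.23) and -0.09 in replicates 1 to 4 (interval -0.43 to 0.25). Col1a2 was -0.61 (interval -0.95 to -0.28) in replicates 5 and above and 0.24 (interval -0.10 to 0.58) in replicates 1 to 4. Col3a1 was -0.63 (interval -1.17 to -0.08) in replicates 5 and above and 0.32 (interval -0.05 to 0.68) in replicates 1 to 4. Col1a2 and Col3a1 thus lay on opposite sides of 0 in the sets, and the values for replicates 5 and above rest on 2 ATB-346 arrays. The Col3a1 value is the mean of 2 probes, and only the brighter one changed sides on average. Its dimmer probe was 6.60, 6.75, 6.97 and 7.09 in ATB-346 replicates 1 to 4, against 6.87, 7.05, 7.18 and 6.79 with vehicle. In replicates 5 and above that probe was 6.58 and 6.41 with ATB-346, against 6.97, 6.59, 7.06 and 6.99 with vehicle. In replicates 5 and above 7 of 16 had an unadjusted p under 0.05, where 5.17% of all targets did, and none was called (limma, lowest adjusted p 0.937). In replicates 1 to 4 only Col4a5 had one, at -0.30, where 11.1% of all targets did and 0.177% were called.

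The difference of the ATB-346 effect between the sets was tested directly. No collagen and 0% of all targets were called, with adjusted p-values of 1 in limma. At an unadjusted p under 0.05, 6 of 16 collagens had a more negative ATB-346 difference in replicates 5 and above, where 2.46% of all targets did (4.05% in either direction). They were Col3a1 by -0.94 (SE 0.30, on the mean of its 2 probes), Col1a2 by -0.85 (SE 0.24) and Col1a1 by -0.65 (SE 0.28). Next were Col6a2 by -0.58 (SE 0.24), Col4a2 by -0.47 (SE 0.22, and -0.32 without ATB-346 replicate 3) and Col18a1 by -0.40 (SE 0.19). Over the 16 collagens 14 were below 0, with a median of -0.47 beside 0.01 for all targets. As the collagens varied together from array to array, neither count is of independent genes. Col9a2 at 0.08 and Col4a5 at 0.02 were the 2 above 0. With the acinar mean as a covariate Col3a1 was -0.93, Col1a2 -0.84 and Col1a1 -0.64.

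In that test no stromal marker was called. All 7 fibroblast markers were below 0 with a median of -0.40 (Lum -0.66, Dpt -0.49, Dcn -0.40), as were all 8 smooth muscle markers with a median of -0.31 (limma, 3 fibroblast and 0 smooth muscle markers at an unadjusted p under 0.05). The mean fibroblast marker signal was 9.91 to 10.11 in ATB-346 replicates 5 and 6 and 10.30 to 10.54 in vehicle replicates 5 to 8, against 10.08 to 10.40 in ATB-346 and 10.10 to 10.25 in vehicle replicates 1 to 4. Their part in the collagen result was not tested. Of the 20 collagen-binding matrix proteins 19 were below 0 with a median of -0.26, led by Sparcl1 at -0.84 and Lum, and all 7 genes of propeptide cleavage and cross-linking were below 0 with a median of -0.19, led by Pcolce at -0.44 and Adamts2 at -0.38. In folding and export 9 of 13 were below 0, led by Fkbp7 at -0.32 and Sec13 at -0.21. In degradation 11 of 13 were, led by Mmp2 at -0.53 and Timp2 at -0.35. In TGF-beta signalling 8 of 14 were, led by Tgfb2 at -0.35 and Ltbp3 at -0.30. Among the receptors Itgb1 was at -0.20 and Itga1 at -0.28, and among the hydroxylation genes, of which 8 of 11 were below 0, P3h3 was at -0.20 and Plod1 at 0.18. Over all targets 51.7% were above 0 in this test, and its side of replicates 5 and above rests on 2 ATB-346 arrays. Dcn, Lum and Fbln1 are in both the fibroblast markers and the matrix proteins, so these counts share genes. No member of these 7 lists was called in this test (limma). Between 0 and 5 members of a list had an unadjusted p under 0.05, where 4.05% of all targets did.

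**Figure D4:**
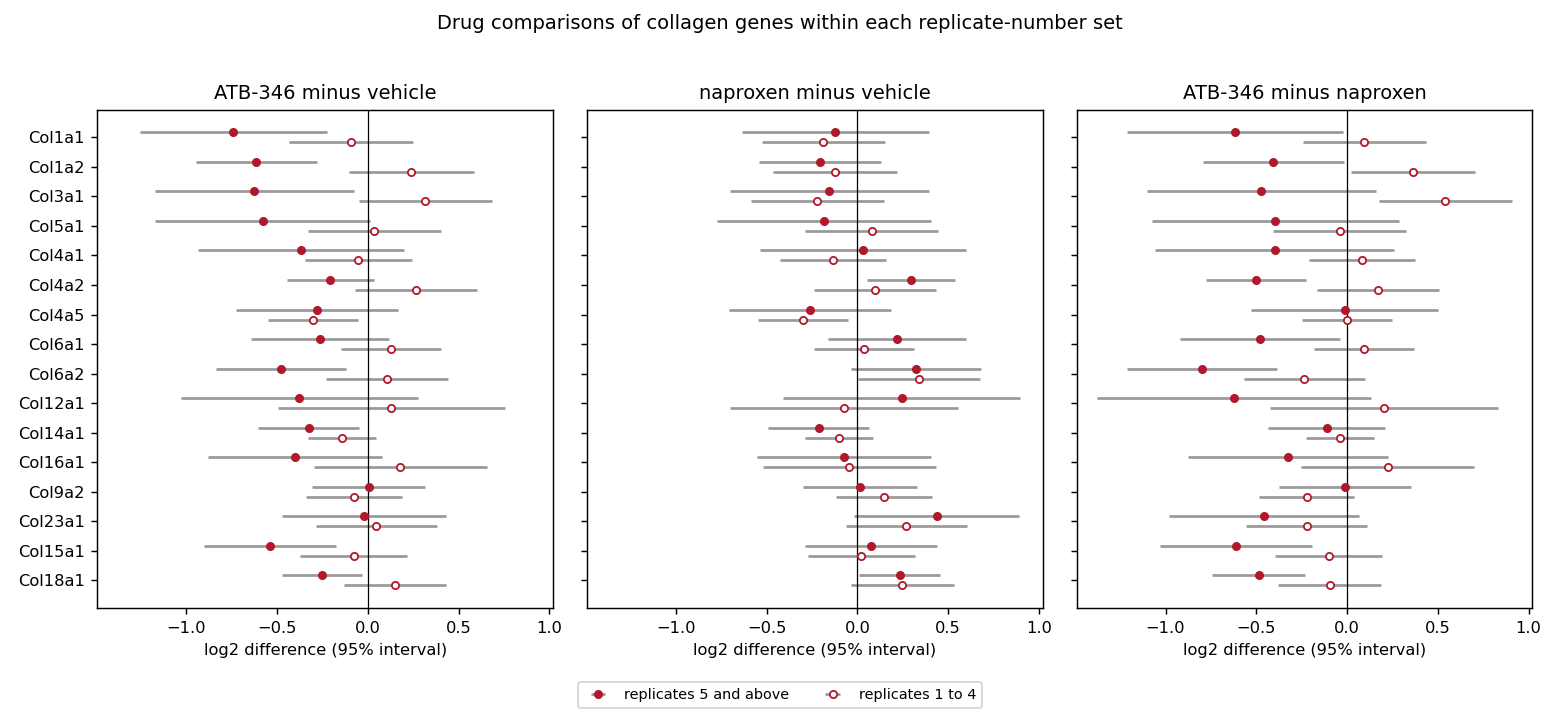
Log2 differences (horizontal axes, bars for the 95% interval) of ATB-346 minus vehicle, naproxen minus vehicle and ATB-346 minus naproxen for each tested collagen, fitted apart in replicates 5 and above (filled) and replicates 1 to 4 (open). In the panel of ATB-346 minus vehicle, 15 of 16 filled points lie left of 0, and in the panel of ATB-346 minus naproxen all 16 do. The panels with vehicle share the vehicle arrays and the panels with ATB-346 share the ATB-346 arrays.

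Naproxen was compared with the same vehicle arrays, so its differences share their controls with those of ATB-346. No collagen and 0% of all targets were called (limma). Of the 16 collagens 8 were higher and 8 lower, with a median of -0.02 beside 0.01 over all targets. At an unadjusted p under 0.05 there were 5 of 16, where 12.4% of all targets were, 3 of them higher (6.73% of all targets) and 2 lower (5.67%). Col23a1, a transmembrane collagen, had a lowest, median and highest signal of 7.16, 7.32 and 7.74 in naproxen arrays, against 6.66, 7.05 and 7.44 in vehicle arrays, and differed by 0.33 (SE 0.12, limma adjusted p = 0.361).

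Col6a2, a chain of the microfibrillar type VI collagen, had 8.87, 8.94 and 9.47 in naproxen arrays, against 8.58, 8.74 and 9.00 in vehicle arrays, and differed by 0.31 (SE 0.13, limma adjusted p = 0.387). Col18a1, the source of the fragment endostatin, had 8.86, 8.95 and 9.23 in naproxen arrays, against 8.58, 8.76 and 8.92 in vehicle arrays, and differed by 0.22 (SE 0.10, limma adjusted p = 0.392). The naproxen median lay above all but 1 vehicle array for Col6a2 and above every vehicle array for Col18a1, and the spans of both genes overlapped. Col4a5 differed by -0.29 (SE 0.10, limma adjusted p = 0.339) and Col14a1 by -0.15 (SE 0.07, limma adjusted p = 0.399), on the same side of 0 as with ATB-346. With the acinar mean as a covariate the 5 differences were 0.24 for Col23a1, 0.30 for Col6a2, 0.23 for Col18a1, -0.22 for Col4a5 and -0.14 for Col14a1. Col1a1 at -0.19, Col1a2 at -0.20, Col3a1 at -0.24 and Col4a1 at -0.09 were below 0, and Col6a1 at 0.09 and Col4a2 at 0.15 above, all with intervals that hold 0. Within replicates 5 and above 2 of 16 had an unadjusted p under 0.05 (7.70% of all targets), and within replicates 1 to 4 2 did (6.53%). In the test of the naproxen effect between the sets no collagen was called and none had an unadjusted p under 0.05 (limma), where 0% and 3.16% of all targets did, and the median was 0.05.

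ATB-346 was also set against naproxen directly. No collagen and 0% of all targets were called (limma), and 13 of 16 collagens were lower with ATB-346, with a median of -0.09 beside 0.00 over all targets. Col6a2 had 8.14, 8.61 and 9.33 in ATB-346 arrays, against 8.87, 8.94 and 9.47 in naproxen arrays, and differed by -0.42 (SE 0.14, limma adjusted p = 0.335). Here 5 of the 6 ATB-346 arrays lay below every naproxen array. Col23a1 differed by -0.30, Col15a1 by -0.27 (-0.16 without ATB-346 replicate 6) and Col18a1 by -0.23, which with Col6a2 made 4 of 16 lower at an unadjusted p under 0.05 (4.5% of all targets, 10.5% in either direction). Col3a1 at 0.20, Col1a2 at 0.11 and Col16a1 at 0.04 were the 3 above 0.

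In replicates 5 and above all 16 collagens were lower with ATB-346 than with naproxen (median -0.46), and for 10 both ATB-346 arrays lay below both naproxen arrays, where 21.1% of all targets did. Of these 16, 7 had an unadjusted p under 0.05 (11.5% of all targets). These counts are also of genes that varied together, and they rest on 2 arrays per drug. In replicates 1 to 4, 8 were higher and 8 lower (median 0.04), with Col3a1 at 0.54 (interval 0.17 to 0.91) and Col1a2 at 0.36 (interval 0.02 to 0.71) above 0 and the only ones with an unadjusted p under 0.05 (5.92% of all targets). The difference between the sets had no call (0% of all targets, limma), and 7 of 16 had an unadjusted p under 0.05 (7.91% of all targets), from Col3a1 at -1.01 (SE 0.33, adjusted p = 0.44) to Col15a1 at -0.51 (SE 0.24, adjusted p = 0.618). Without ATB-346 replicate 6 Col15a1 was -0.27.

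Genes around collagen gave no call against vehicle with either drug (limma, 0 of 7 lists), where 0.309% of all targets were called with ATB-346 and 0% with naproxen. With ATB-346 between 0 and 3 members of a list had an unadjusted p under 0.05, where 13.4% of all targets did. The members named next had the smallest p in their list, whether or not it was under 0.05. In degradation none was under 0.05 with ATB-346. The named members were Plod3 (-0.17) and Crtap (-0.06) in hydroxylation, and Klhl12 (0.13) and Fkbp7 (0.17) in folding and export. They were Pcolce (-0.23) and Loxl1 (-0.18) in processing, and Timp4 (-0.28) and Mmp14 (-0.17) in degradation. They were Ddr1 (-0.21) and Itga11 (-0.06) among receptors, Sparcl1 (0.42) and Lum (-0.26) among matrix proteins, and Tgfbr1 (0.19) and Smad3 (-0.18) in TGF-beta signalling. With naproxen the range was also 0 to 3, where 12.4% of all targets had such a p. In folding and export none had one with naproxen. The members with the smallest p, under 0.05 or not, were P3h4 (0.15) and Plod1 (0.17), Sec13 (0.10) and Fkbp7 (0.09), Tgm2 (0.35) and Pcolce2 (0.39), and Reck (0.18) and Mmp9 (0.35) in the same 4 lists. They were Itga11 (0.16) and Itga2 (0.32), Sparcl1 (0.37) and Lama2 (0.17), and Ltbp1 (0.16) and Tgfbr3 (0.30) in the last 3. Tgm2 encodes a transglutaminase that cross-links matrix proteins, and Ddr1 a receptor kinase activated by collagen.

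ApcMin vehicle mice were compared with wild-type vehicle mice to see whether the allele itself altered the collagens. No collagen was called and none had an unadjusted p under 0.05 (limma), where 0% and 4.71% of all targets did. Of the 16, 9 were higher and 7 lower in ApcMin vehicle arrays, with a median of 0.03 beside -0.01 over all targets. In replicates 1 to 4 alone, the only set with wild-type arrays, 6 were higher and 10 lower. Their median there was -0.04 beside -0.01 over all targets, with Col1a2 at -0.08 and Col3a1 at -0.07. The values that follow are from the main model. The widest differences were Col1a1 at 0.25 (interval -0.13 to 0.62), with 8.50, 8.75 and 9.27 as lowest, median and highest in ApcMin vehicle arrays, against 8.81, 8.62, 8.60 and 8.32 in the 4 wild-type arrays, and Col18a1 at -0.20 (interval -0.44 to 0.05). Next by p were Col4a5 at 0.18, Col14a1 at 0.13 and Col6a2 at 0.16 above 0, and Col9a2 at -0.10, Col16a1 at -0.17 and Col4a2 at -0.06 below. Col1a2 at 0.05 and Col3a1 at 0.06 were close to 0, as were Col4a1 at 0.05 and Col6a1 at 0.06.

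Around the collagens the ApcMin comparison called 0 members of the 7 lists (limma). From 0 to 1 member of a list had an unadjusted p under 0.05, where 4.71% of all targets did. The members with the smallest p in each list, under 0.05 or not, were Plod1 (-0.20) and Colgalt1 (0.10), Sec23a (0.24) and Fkbp7 (-0.16), Lox (0.18) and Pcolce (0.14), and Mmp3 (-0.20) and Reck (0.10). They were Itgb1 (0.12) and Itga11 (-0.07), Agrn (-0.27) and Lamb1 (-0.15), and Tgfbr1 (-0.13) and Tgfb1 (0.13). Against wild type, the drug-treated ApcMin mice had no called collagen and 0% of all targets called either. With ATB-346 no collagen had an unadjusted p under 0.05 (5.73% of all targets), and with naproxen 1 of 16 did (8.5%), Col6a2 at 0.47 (interval 0.14 to 0.79, limma adjusted p = 0.528). These comparisons use the same 4 wild-type arrays.

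Within groups the collagens were high or low together from array to array. After the mean of each group and set was removed, 106 of 120 pairs of tested collagens had a positive correlation over the 24 arrays, with a median r of 0.558, where 50.1% of all pairs of tested targets were positive with a median of 0.00106. The part of shared normalisation and of the mixture of cells in each sample was not tested. By permutation within group and set (100000 draws, two-sided, adjusted over the 120 pairs), 59 pairs passed 0.05, of which 58 were positive. Partner chains of 1 trimer were among them but did not stand apart. Higher values were seen between types, as for Col15a1 and Col6a2 (r = 0.912) and Col4a1 and Col5a1 (r = 0.89). Col1a1 and Col1a2 had r = 0.793 and rho = 0.824 (adjusted permutation p = 0.00107 and 0.0012), with r = 0.711 without the 2 farthest arrays. Col6a1 and Col6a2 had r = 0.812 and rho = 0.743 (adjusted permutation p = 0.00131 and 0.00573), with r = 0.747 without the 2 farthest. Col4a1 and Col4a2 had r = 0.612 and rho = 0.662 (adjusted permutation p = 0.0127 and 0.0133), with r = 0.626 without the 2 farthest.

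Col23a1 stood apart from the others. Its correlation was negative with 13 of the 15 other collagens, and the pair with Col3a1 was the 1 negative pair past the threshold, at r = -0.679 and rho = -0.567 (adjusted permutation p = 0.00686 and 0.0322) and r = -0.598 without the 2 farthest. Some arrays deviated across most collagens at once. In ATB-346 replicate 3 all 16 collagens lay above their group-by-set mean, by a median of 0.34, and in ATB-346 replicate 1 14 of 16 lay below it, by a median of -0.33. Arrays with high acinar means lay on both sides. In vehicle replicate 7 (acinar mean 14.47) 14 of 16 collagens lay above, and in vehicle replicate 3 (11.23) 15 did. In vehicle replicate 2 (12.80) 12 lay below, in vehicle replicate 8 (11.29) 13 and in naproxen replicate 1 (10.61) 15. The group-by-set means include these arrays, and the part of acinar content in the deviations was not tested.

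The targets outside the collagens whose signal followed the mean of Col1a1, Col1a2 and Col3a1 most closely over the 24 arrays, in the same residuals, were Fstl1 (r = 0.917), Serpinh1 (0.896), Loxl1 (0.873), Sparc (0.844), Plau (0.838), Olfml2b (0.836), Ppic (0.835) and Id4 (0.835). Serpinh1 is the collagen chaperone named above, Loxl1 an oxidase that cross-links matrix fibres and Sparc a protein that binds collagen. These 8 are a description of likeness and were chosen for it.

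**Figure D5:**
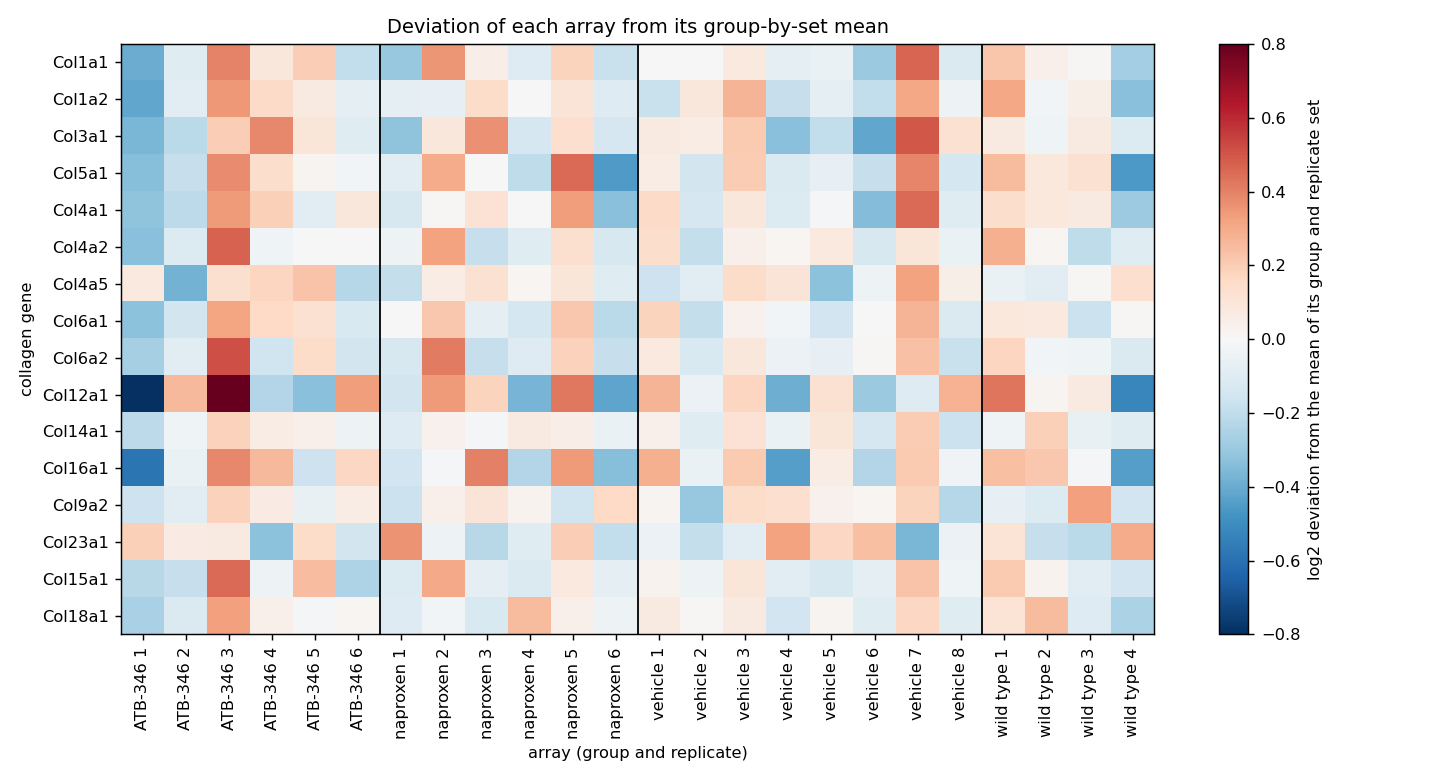
Deviation of each array (columns, by group and replicate) from the mean of its group and replicate set, in log2 units, for the 16 tested collagens (rows), with red above and blue below the mean. ATB-346 replicate 3 is above its mean in all 16 rows and ATB-346 replicate 1 below it in 14, and Col23a1 runs against the other rows in many columns.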

How the data were processed

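RNA from colon was labelled and hybridised to single-colour bead arrays, per the labels' protocols, and groups and replicate numbers were taken from the labels. The deposited gene table holds the average intensity per target on a linear scale, which per the file headers came unnormalized from GenomeStudio 1.7.0. For background subtraction a statement was not given in the sources used here. A second deposited table holds the intensity of 25697 probes. Over 9359 single-probe genes the tables matched within 0.05 units for 98.9% of values, so they are 1 measurement. Of the targets 14096 matched a current symbol, 3025 a synonym, and 976 are named as deposited.

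Intensities were corrected with normexp (offset 50), quantile-normalized and set to log2, so deposited intensities became log2 signals, and quantile normalization hides a change in total RNA. Targets with a mean above the 50th percentile were tested. All 24 arrays were fitted together in limma 3.58.1 (R 4.3.3), with a mean per group and 1 term for replicates 5 and above, and p-values were adjusted by Benjamini-Hochberg over all tested targets. Differences between sets used a mean per group and set. Intervals are 95%, with precision set by how few arrays there are. The fit was tested on simulated data.

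Named were, in each comparison, called collagens or, by smallest p, 4 per direction, the main chains of types I, III, IV, VI and XVIII always, the called members of each list or its 2 with the smallest p, and the 8 targets most like the fibrillar mean. In the comparison of the drugs and those of the drug-treated mice with wild type, members of lists are given by counts only, and marker lists by their means and counts; 1 marker result is not reported here. Members and lists were chosen with earlier results of these data known. Alternatives were other filters, offsets and scalings, the probe table, no set term, each set alone, an acinar covariate, a replicate block, and each array left out.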

Additional observations from a re-analysis of the deposited data

Results flagged for a closer look

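In all, 3 values stood far from the others of their group among 64 group-by-gene checks, where chance gives about 1 in 20. Naproxen replicate 2 had a Col15a1 signal of 8.48, and the other naproxen arrays lay between 7.98 and 8.14. Vehicle replicate 7 of the ApcMin mice had a Col1a1 signal of 9.27, and the other vehicle arrays lay between 8.50 and 8.83. Wild-type replicate 4 had a Col4a1 signal of 10.82, and the other wild-type arrays lay between 11.18 and 11.25.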

How the results depend on the processing

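The counts of 0 called collagens stayed at 0 under every alternative run, and none of the 32 differences called or with an unadjusted p under 0.05 changed sign. Other differences did with each set alone. Against vehicle, 8 of 16 ATB-346 differences had the opposite sign in replicates 1 to 4 and 3 in replicates 5 and above. Col1a2 (0.24), Col3a1 (0.32, on the mean of its 2 probes) and Col6a2 (0.10) were above 0 in replicates 1 to 4, as was the median of the 16 (0.08). For naproxen 2 of 16 had the opposite sign in replicates 1 to 4 and 1 in replicates 5 and above. For ApcMin vehicle against wild type 3 of 16 had the opposite sign in replicates 1 to 4. Between the replicate sets 4 collagens were called. With each array left out in turn the count was 2 to 6, and it was 2 with median scaling. It was 2 without ATB-346 replicate 6, the array whose omission moved it by over 1.5 times downwards. Col15a1 was no longer called without that array (-0.20, adjusted p = 0.091) or with median scaling (-0.24, adjusted p = 0.111) in limma. Col4a5 was no longer called with median scaling (-0.20, adjusted p = 0.137), nor without ATB-346 replicate 6, naproxen replicate 6 or vehicle replicates 3, 4, 5 or 6, between -0.23 and -0.19. Col4a1 was called without vehicle replicate 7 (-0.31, adjusted p = 0.0275) or naproxen replicate 5 (-0.34, adjusted p = 0.0197). The cause was not tested. Col1a2 (0.95 to 1.10) and Col3a1 (1.17 to 1.36) were called with each array left out. Over all targets ATB-346 had 28 calls, 0 without the set term, 8 with median scaling, 1 with the acinar covariate and 16 in replicates 1 to 4 alone. With 1 array left out it had 3 to 34 calls, with 3 without vehicle replicate 2, 3 or 5 or ATB-346 replicate 1, 4 without vehicle replicate 4, 5 without ATB-346 replicate 4, 7 without vehicle replicate 6 or ATB-346 replicate 2, 10 without vehicle replicate 7 and 14 to 16 without naproxen replicate 4, ATB-346 replicate 5 or wild-type replicate 1 or 3. In the ATB-346 minus naproxen difference between the sets, Col6a1 was -0.36 without naproxen replicate 5, against -0.57 with all arrays.

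The replicate numbers do not mark a shared animal or day in the labels, and 16 of 30 same-numbered pairs had correlated deviations over 0.1 (median 0.128), with 8 of 24 arrays correlating best with their own number. With the replicate number as a block in place of the set term, 0 collagens were called in the comparisons of groups, and ATB-346 had 6 calls over all targets. A block could not be fitted for the set comparison, and wild-type comparisons could not be run within replicates 5 and above, which hold no wild-type array.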
